A study of Rattus norvegicus with 10 samples.

Results

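The endothelial genes of tumour vessels were examined in rat mammary tumours as a set of 10 genes: Cdh5, Pecam1, Kdr, Flt1, Tek, Tie1, Vwf, Eng, Emcn and Esam. They were listed by gene name, with earlier results of these data known. Of the 10, 9 had at least 1 matched probe on the array (12 probes in all), and 5 of these 9 (Cdh5, Kdr, Flt1, Eng and Esam) were bright enough to be tested, among 16779 genes tested in all. Vwf had no matched probe and was not analysed here.

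The study compared mammary tumours of daughters of dams fed a Western-style diet (WD) with tumours of daughters of dams fed a control diet (CD), 5 tumours in each group. All animals were female Sprague-Dawley rats. In the WD group the dams ate a diet rich in fat and poor in fibre and oligoelements, and in the CD group they ate the control diet, in both cases over gestational days 12 to 20 and postnatal days 1 to 21. Daughters of both groups ate the control diet from weaning on, and all were injected once into the peritoneum with N-methyl-N-nitrosourea at 50 mg/kg, an alkylating carcinogen that gives mammary tumours in young rats, at the age of 3 weeks. The tumours are labelled as taken at 110 days and as tubular or papillary. Whether the 5 tumours of a diet are from different rats, dams or litters is not in the labels, so the p-values measure the spread between these tumours only.

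Endothelial cells line blood and lymph vessels, and a growing tumour draws new vessels from those of its host. Vascular endothelial growth factor binds the receptors encoded by Kdr and Flt1, of which Kdr carries most of the growth signal and Flt1 largely acts as a decoy. The receptor encoded by Tek answers to angiopoietins, and with its partner receptor, encoded by Tie1, it helps to hold vessels in a quiet state. VE-cadherin (Cdh5), PECAM-1 (Pecam1) and ESAM (Esam) join endothelial cells to one another.

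Each tumour was measured on its own 1-colour array. A level is the log2 processed intensity of a probe minus the 75th percentile of its array, so 0 is that percentile and a step of 1 is a doubling. Levels of different probes cannot be set against each other, so only differences between tumours are given. The 75th percentile of intensity, called array brightness below, lay between 72.8 and 170 in WD arrays (median 98.6) and between 85.0 and 226 in CD arrays (median 190). The arrays fell on either side of a gap in brightness: WD1, WD2, WD3, WD4 and CD3 lay between 72.8 and 112, and WD5, CD1, CD2, CD4 and CD5 between 170 and 226. With only 5 arrays on each side, no correlation of a gene with brightness is given, and fits with diet and brightness as joint terms, in which CD3 and WD5 cross between the sides, are given instead. Between 16685 and 21905 probes were well above background on WD arrays and between 18587 and 21461 on CD arrays, and pairs of arrays correlated at r = 0.915 to 0.977 over the tested genes. No gene of the 16779 passed an adjusted p of 0.05 in limma (lowest adjusted p 0.136), while 2603 had an unadjusted p under 0.05.

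Sequence around the annotated start was at hand for 5 of the 10 genes, as RefSeq windows of 300 bases on GRCr8 (250 before the start and 50 after it). Those of the 3 tested genes among them are printed because they are the receptor genes whose levels are compared below. They lie at chr14:32571813-32572112 on the plus strand (Kdr), chr12:12333180-12333479 on the plus strand (Flt1) and chr3:36332029-36332328 on the plus strand (Eng). Each is written 5′ to 3′ in lower case, with capitals for AGGAAG and its reverse complement CTTCCT. These are 1 form of the letters bound by ETS factors such as Erg, a regulator of endothelial genes.
Kdr: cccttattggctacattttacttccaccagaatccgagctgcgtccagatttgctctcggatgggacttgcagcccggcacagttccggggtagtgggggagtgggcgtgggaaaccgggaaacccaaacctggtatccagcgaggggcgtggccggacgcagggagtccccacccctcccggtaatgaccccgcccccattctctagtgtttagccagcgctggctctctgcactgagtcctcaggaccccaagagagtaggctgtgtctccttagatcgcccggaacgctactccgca
Flt1: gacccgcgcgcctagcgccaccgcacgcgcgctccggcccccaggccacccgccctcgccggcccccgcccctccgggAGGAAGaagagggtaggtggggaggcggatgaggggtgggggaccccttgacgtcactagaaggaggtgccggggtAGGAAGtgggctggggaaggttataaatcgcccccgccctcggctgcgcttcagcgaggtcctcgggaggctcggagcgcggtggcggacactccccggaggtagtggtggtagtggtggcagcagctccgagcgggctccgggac
Eng: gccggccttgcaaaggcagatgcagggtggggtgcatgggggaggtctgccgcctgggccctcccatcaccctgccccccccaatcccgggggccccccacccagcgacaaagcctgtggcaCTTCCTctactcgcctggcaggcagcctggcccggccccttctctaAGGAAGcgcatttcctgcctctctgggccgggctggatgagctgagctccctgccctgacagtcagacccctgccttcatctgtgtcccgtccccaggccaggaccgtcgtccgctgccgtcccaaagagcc
The Kdr window held none of these ETS letters, the Flt1 window held 2 and the Eng window held 2, of which 1 lay on each strand. Tie1 and Emcn, whose windows are not printed, held 1 and 2. In the whole table, 34.5% of 33469 windows held the ETS letters on either strand. The KLF letters CCACCC stood in 4 of the 5 windows (Kdr, Flt1, Tie1 and Eng), against 29.4% of all windows. The FOX letters TGTTTAC and the GATA letters AGATAA stood in none of the 5, against 3.78% and 11.6% of all windows. No searched motif is part of another, both strands were searched, and a match describes the letters only. Other forms of these sites were not searched, so a window without a match, such as that of Kdr for ETS, may still hold a site.

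Between the diets, none of the 5 tested endothelial genes passed the threshold. Cdh5, Kdr and Esam had higher means in WD tumours and Flt1 and Eng had lower ones, by 0.21 to 0.67 in size on the log2 scale. In limma 0 of 5 had an adjusted p under 0.05, against 0% of all genes tested, and 0 of 5 had an unadjusted p under 0.05, against 15.5% of all (7.8% higher and 7.72% lower in WD). Their adjusted p ran from 0.351 to 0.774. The groups overlapped for all 5, while 3.65% of all tested genes had groups that did not overlap (1.34% higher and 2.32% lower in WD). The median difference of the 5 was 0.30 (WD minus CD), beside 0.01 over all tested genes, and 51.4% of all tested genes had a higher mean in WD. Without WD3 or without CD1 that median was 0.17, without CD2 it was 0.19, and over all single tumours left out it ran from 0.17 to 0.39. Scaling the arrays on their median instead of their 75th percentile moved the median of all genes to -0.24, and list medians under that scaling are to be read against this value. In whole-tumour RNA, a difference in the number of endothelial cells and a difference in RNA per endothelial cell cannot be told apart.

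**Figure D1:**
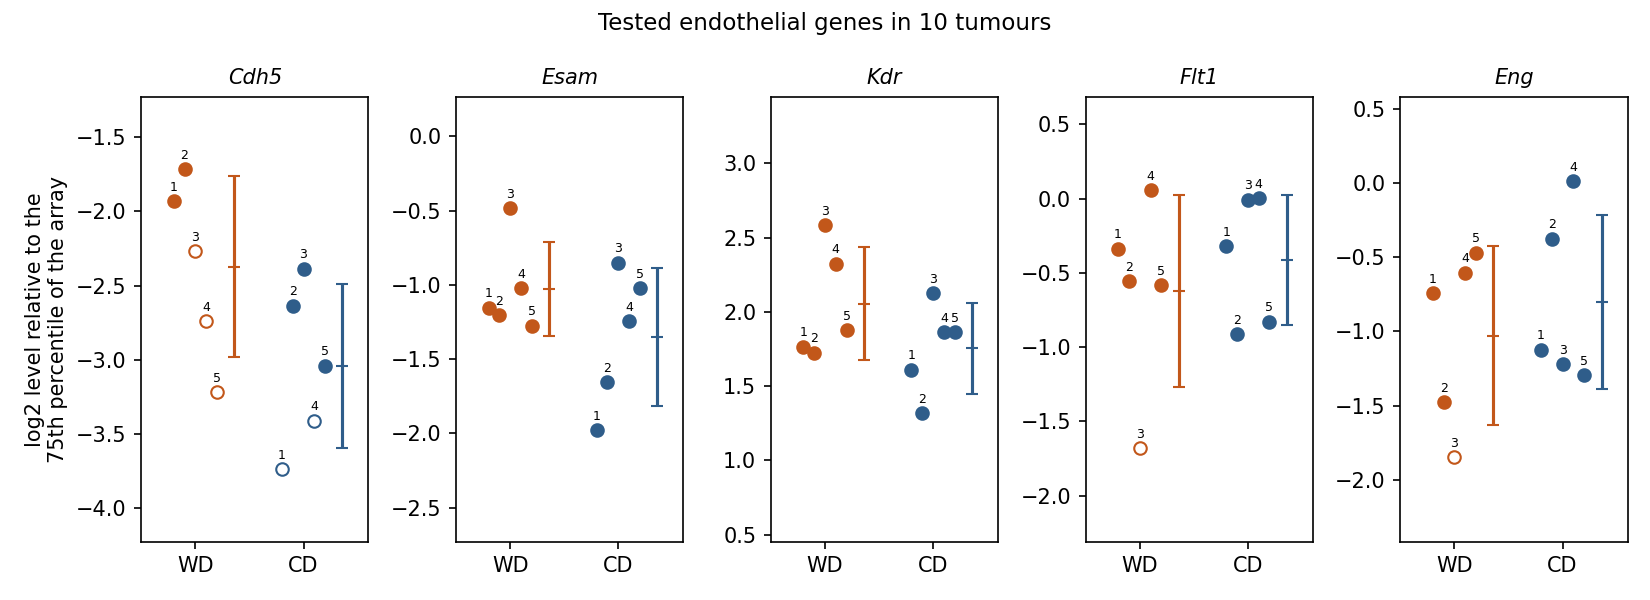
Level of the 5 tested endothelial genes in each tumour (log2 relative to the 75th percentile of the array). Each point is 1 tumour numbered by replicate, a hollow point marks a probe not well above background on that array, and bars give the group mean ± SD (n = 5). All panels span the same range, and the WD and CD points overlap in every panel.

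Among the junction genes, Cdh5 encodes VE-cadherin, the adhesion molecule of endothelial adherens junctions. Its level (probe A_43_P19735) was -1.93, -1.71, -2.27, -2.74 and -3.22 in WD1 to WD5, against -3.74, -2.64, -2.39, -3.41 and -3.04 in CD1 to CD5. WD1, WD2 and WD3 stood above all CD tumours, and WD5 lay within the CD range, as did WD4. The mean was -2.37 ± 0.61 in WD tumours and -3.04 ± 0.55 in CD tumours (SD, n = 5 each), a 1.59-fold higher mean in WD. The log2 difference was 0.67 ± 0.33 (SE, 95% interval -0.05 to 1.39, limma adjusted p 0.351), with 4 of 5 WD tumours above the CD mean. The probe was dim: it was well above background on 2 of 5 WD arrays (WD1 and WD2) and on 3 of 5 CD arrays (CD2, CD3 and CD5). The difference was 0.16 with array brightness as a covariate and 0.12 on the authors' series matrix values. Without WD5 or without CD3 its unadjusted p in limma was 0.0168 and 0.0295, and its adjusted p 0.219 and 0.206. In these fits 2746 and 3283 of 16779 genes had an unadjusted p under 0.05. WD5 and CD3 are the arrays that cross the gap in brightness, so without either, diet and brightness are harder to separate.

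Esam encodes a cell adhesion molecule of endothelial tight junctions that platelets carry too. Its level (probe A_42_P481816) was -1.15, -1.20, -0.48, -1.02 and -1.28 in WD1 to WD5, against -1.98, -1.66, -0.85, -1.24 and -1.02 in CD1 to CD5. WD3 stood above all CD tumours, CD1 and CD2 stood below all WD tumours, and the other 7 overlapped. The mean was -1.03 ± 0.32 in WD tumours and -1.35 ± 0.46 in CD tumours (SD, n = 5 each). All 5 WD tumours lay above the CD mean, and the difference was 0.32 ± 0.24 (SE, 95% interval -0.20 to 0.85, limma adjusted p 0.526). The probe was well above background on all 10 arrays. With brightness as a covariate the difference was 0.01. It was 0.19 without WD3 and 0.17 without CD1.

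Pecam1 encodes PECAM-1 (CD31), a junction protein that is the usual stain for vessels. Its only probe (A_44_P305223) was well above background on 0 of 10 arrays, so no fold is given. Its measured level was -3.83 ± 0.90 in WD tumours and -4.57 ± 0.99 in CD tumours (SD, n = 5 each).

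Of the receptors for vascular endothelial growth factor, Kdr was at 1.77, 1.72, 2.58, 2.32 and 1.88 in WD1 to WD5, against 1.61, 1.32, 2.13, 1.86 and 1.86 in CD1 to CD5 (probe A_43_P11686). WD3 and WD4 stood above all CD tumours, CD1 and CD2 stood below all WD tumours, and the remaining 6 overlapped. The mean was 2.06 ± 0.38 in WD tumours and 1.76 ± 0.31 in CD tumours (SD, n = 5 each), 1.23-fold higher in WD. The difference was 0.30 ± 0.21 (SE, 95% interval -0.17 to 0.77, limma adjusted p 0.515), with 4 of 5 WD tumours above the CD mean. Kdr was well above background on all 10 arrays. With brightness as a covariate its difference was 0.04. It was 0.17 without WD3 and 0.19 without CD2. With the slide as a block it was 0.36, with an unadjusted limma p of 0.0286 and an adjusted p of 0.239. In that fit 2914 of 16779 genes had an unadjusted p under 0.05.

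Flt1 was at -0.34, -0.56, -1.68, 0.06 and -0.58 in WD1 to WD5, against -0.32, -0.91, -0.01, 0.00 and -0.83 in CD1 to CD5 (probe A_44_P520123). WD3 was the lowest of the 10 and the only one in which the probe was not well above background. The other 9 tumours mixed. The mean was -0.62 ± 0.65 in WD tumours and -0.41 ± 0.44 in CD tumours (SD, n = 5 each), a difference of -0.21 ± 0.31 (SE, 95% interval -0.90 to 0.48, limma adjusted p 0.774). Without WD3 the difference was 0.06, so its sign rested on that tumour. The other probe of Flt1 was well above background on no array.

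Eng encodes endoglin, a co-receptor for BMP9 and transforming growth factor beta on endothelial cells. Its level (probe A_44_P474559) was -0.74, -1.48, -1.85, -0.60 and -0.47 in WD1 to WD5, against -1.12, -0.38, -1.22, 0.01 and -1.30 in CD1 to CD5. WD2 and WD3 were the lowest and CD2 and CD4 the highest, and the rest overlapped. The mean was -1.03 ± 0.60 in WD tumours and -0.80 ± 0.58 in CD tumours (SD, n = 5 each). The difference was -0.23 ± 0.33 (SE, 95% interval -0.96 to 0.51, limma adjusted p 0.766), and it was 0.24 with brightness as a covariate. Without WD3 or without CD4 it was -0.022 and -0.024, so its size rested on these tumours. The probe was well above background on 4 of 5 WD arrays and 5 of 5 CD arrays, with WD3 the exception.

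The angiopoietin receptor gene Tek, its partner Tie1 and Emcn could not be compared. Both probes of Tek, which encodes the receptor TIE2, were well above background on 0 of 10 arrays. Of the 2 probes of Tie1, which encodes a partner receptor of TIE2, 1 was never well above background and the other (A_44_P520235) was so on WD5 only, at -3.06. Emcn encodes endomucin, a sialomucin of capillary and vein endothelium, and its probe (A_44_P240274) was well above background on WD5 at -2.36, and on CD2 at -2.08 and CD5 at -2.54.

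Dim probes as a class had higher means in WD, whatever their gene. Over the 15989 probes of the array that were well above background on 0 of 10 arrays, the median difference was 0.56 and 95.7% had a higher mean in WD. Over the 5278 probes well above background on 1 to 4 arrays it was 0.39, with 73.1% higher. Over the 14465 probes well above background on all 10 arrays it was -0.00, with 49.7% higher. The Cdh5 probe was well above background on 5 arrays, and the 810 probes with that count had a median difference of 0.10, with 56.9% higher.

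**Figure D2:**
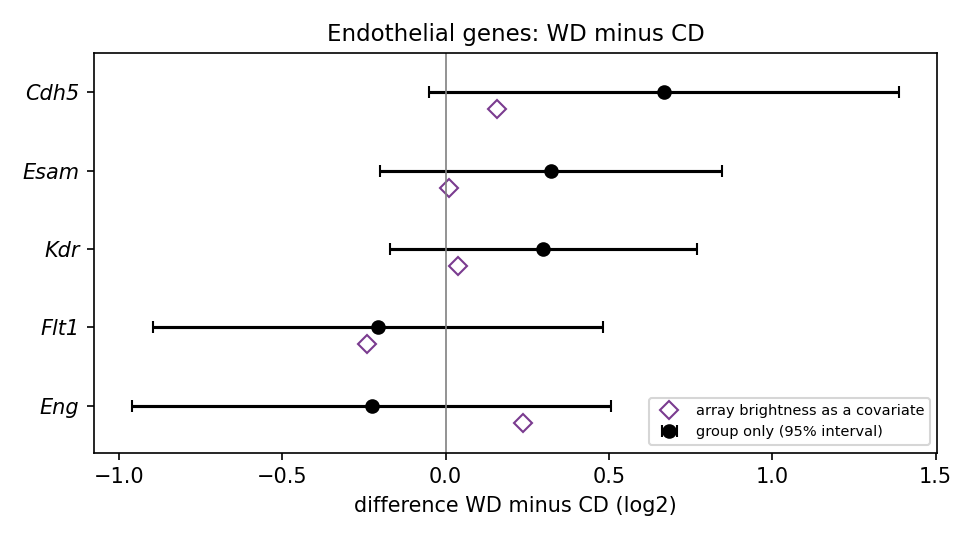
Difference between the group means (WD minus CD, log2) for the 5 tested endothelial genes. Filled points with bars give the group-only fit with its 95% interval and hollow diamonds give the fit with array brightness as a covariate. Every interval includes 0, and the diamonds of Cdh5, Esam and Kdr lie at 0.16, 0.01 and 0.04.

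Brightness moved with the diet groups, so the members were read beside it. CD3, the 1 dim array of the CD group, had the highest level of the CD tumours in Cdh5, in Esam and in Kdr. WD5, the 1 bright array of the WD group, had the lowest Cdh5 and Esam level of the WD tumours. For Eng the dimmest pair of arrays, WD2 and WD3, had the lowest levels of all 10. With brightness as a covariate the median difference of the 5 genes was 0.04, and the part of brightness in the diet difference was otherwise not tested. Each slide held tumours of both groups. Within slides 1, 2 and 3 the Kdr difference was 0.43, 0.46 and 0.14. The Esam difference was 0.48, 0.18 and 0.34, and the Cdh5 difference 0.81, 0.21 and 0.36. Flt1 differed by 0.47, -0.39 and -0.42 and Eng by -0.73, 0.03 and 0.09, so both changed sign between slides.

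**Figure D3:**
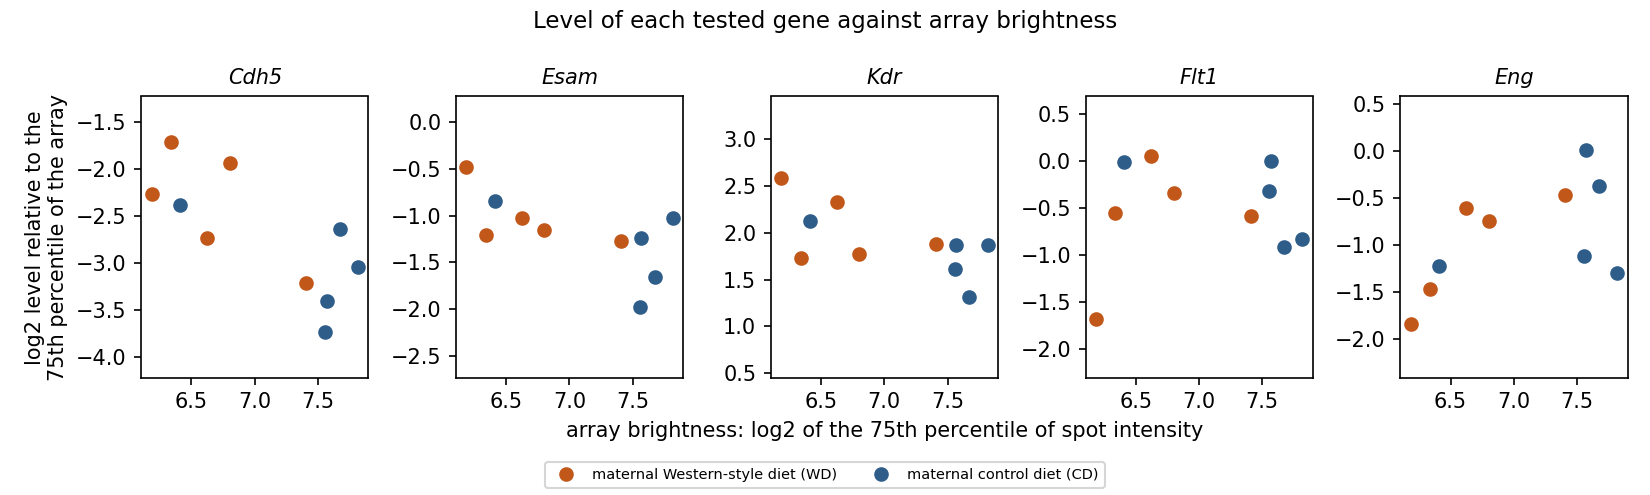
Level of each tested gene (log2, vertical) against array brightness (log2 of the 75th percentile of intensity, horizontal), 1 point per tumour. Most WD points lie at the dim end on the left and most CD points at the bright end on the right, with CD3 and WD5 each among the arrays of the other group.

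Genes of the same cells can vary together between tumours, and the 10 pairs of tested members were compared for this across all 10 tumours. They did not vary as 1 group: the median Pearson r of the 10 pairs was -0.20, the range -0.44 to 0.84, and 4 pairs had an r above 0. The mean r over all pairs of tested genes was 0.01. In 1 pair, Kdr and Esam, r was 0.84 (permutation p 0.00358, adjusted over 10 pairs 0.0358), and Spearman's rho was 0.82 (permutation p 0.00613, adjusted p 0.0613). WD3 was the highest tumour in both genes, and CD1 and CD2 were the lowest pair in both. Without WD3 and CD2, the tumours farthest from the median of Kdr, r was 0.68. After removing group means it was 0.81 (adjusted permutation p 0.0520), after removing slide means 0.79 and after removing brightness 0.73 (adjusted permutation p 0.171). With normexp background correction it was -0.13, so the relation did not hold under that treatment of the background. An r as high or higher was found in 0.66% of all pairs of tested genes. The slides held too few arrays for a value within each.

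**Figure D4:**
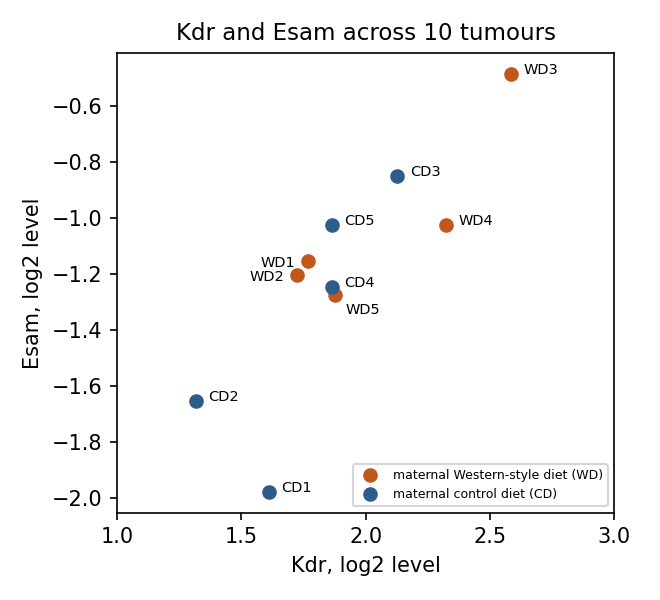
Esam level against Kdr level (both log2 relative to the 75th percentile of the array), 1 point per tumour. WD3 lies at the top right with the highest level of both genes, and CD1 and CD2 at the bottom left with the lowest levels (r = 0.84 over the 10 tumours).

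Cdh5 correlated with Esam at r = 0.51 and Flt1 with Eng at r = 0.54, neither past the threshold (permutation p 0.128 and 0.106 before adjustment). Cdh5 and Eng, Kdr and Eng, and Eng and Esam ran the other way at -0.43, -0.42 and -0.44. The pairs of Cdh5 depended on the treatment of slide and brightness. Removing slide means took Cdh5 and Kdr from r = 0.18 to 0.83, and Cdh5 and Esam to 0.83. With brightness removed instead, these pairs were at -0.60 and 0.04. The median r of the 10 pairs was -0.06 after slide means and -0.11 after brightness. The mean of the 5 genes, each centred on its own mean, therefore describes a mixed pattern. Among 8142 other tested genes with a symbol outside all lists used here, the 8 most like that mean over the 10 tumours were Mlc1 (r = 0.87), Gpt2 (0.86), Dnaaf9 (0.86), Penk (0.86), Ripk2 (0.85), Lsamp (0.85), Vwa7 (0.85) and Aqp9 (0.84). The probes of Mlc1 and Lsamp were well above background on 5 of 10 arrays and those of Gpt2 and Dnaaf9 on 7. These 8 genes are the extremes of many correlations over 10 shared arrays, which differ in brightness, and are given with no test.

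The ligands of the receptors were set beside them. Of 5 tested genes of VEGF ligands, further receptors and co-receptors, 3 had a higher and 2 a lower mean in WD tumours, and none passed the threshold. The median difference was 0.14, and it was -0.11 with arrays scaled on their median (-0.24 over all genes) and -0.21 with brightness as a covariate. It was -0.12 without CD2. Vegfa, the main ligand of Kdr and Flt1, was at 3.29, 4.20, 3.98, 4.25 and 3.74 in WD1 to WD5, against 4.09, 2.71, 4.14, 4.61 and 3.21 in CD1 to CD5. All 5 WD tumours lay within the CD range (difference 0.14 ± 0.34, SE, limma adjusted p 0.870), and without CD2 the Vegfa difference was -0.12. Pgf, which encodes placental growth factor, a ligand of Flt1 and not of Kdr, averaged 1.29 ± 0.54 in WD tumours and 1.82 ± 0.39 in CD tumours (SD, n = 5 each, limma adjusted p 0.365). Vegfc, a ligand of lymphatic growth, differed by 0.52 and the co-receptor gene Nrp1 by 0.33 (0.07 without WD4). Flt4, Nrp2 and Vegfd were too dim to be tested.

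Among the 4 tested genes of angiopoietins and Tie regulators, 2 had a higher and 2 a lower mean in WD, with a median of -0.03. Angpt1, whose product activates TIE2, was at -1.72 ± 0.29 in WD tumours and -2.28 ± 0.60 in CD tumours (SD, n = 5 each), higher in all 5 WD tumours than the CD mean. The difference was 0.55 ± 0.27 (SE, limma adjusted p 0.355), and 0.12 with brightness as a covariate. Angpt2, released by endothelial cells as vessels loosen, differed by -0.07.

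Of 14 further endothelial junction and surface genes that could be tested, 13 had a higher mean in WD tumours, with a median difference of 0.44. None passed the adjusted threshold, and 2 of 14 were higher at an unadjusted p under 0.05, against 7.8% of all tested genes. The count was 10 of 14 with arrays scaled on their median, where 25.2% of all genes had a higher mean in WD, and 11 of 14 with brightness as a covariate. Within slides 1, 2 and 3 it was 7, 12 and 13 of 14. Clec14a, a surface lectin of tumour vessels, was at 0.21, -0.07, 0.36, 0.72 and 0.07 in WD1 to WD5, against -0.93, -0.33, 0.08, -1.02 and -0.19 in CD1 to CD5. All 5 WD tumours lay above the CD mean, and CD3 was the 1 CD tumour above some WD tumours. Its mean was 1.66-fold higher in WD (0.73 ± 0.24, SE, limma adjusted p 0.210), and the difference was 0.51 with brightness as a covariate. Thbd encodes thrombomodulin, which restrains clotting on the vessel wall, and differed by 0.89 ± 0.30 (SE, limma adjusted p 0.218). Cldn5, a tight junction gene, differed by 0.83 (0.29 without CD1) and Icam2 by 0.52, while Cd34, a marker of endothelium and of some precursor cells, differed by 0.01. Plvap was too dim to be tested.

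Endothelial transcription factors gave 6 genes with a higher and 3 with a lower mean in WD among 9 tested, a median of 0.49 that was 0.22 with brightness as a covariate. Sox7 had the lowest p of them (0.77 ± 0.28, SE, limma adjusted p 0.248), on a probe well above background on 3 of 5 WD arrays and 2 of 5 CD arrays. Erg, the ETS factor named above, was at -1.22, -1.42, -0.79, -1.49 and -1.93 in WD1 to WD5, against -2.08, -2.07, -1.46, -1.45 and -2.24 in CD1 to CD5. WD1, WD2 and WD3 stood above all CD tumours and WD4 and WD5 within their range. Its difference was 0.49 ± 0.24 (SE, limma adjusted p 0.345) and 0.08 with brightness as a covariate. Sox18 differed by 0.59 (0.35 without CD1). Tal1, which also works in blood cell precursors, differed by -1.07 (adjusted p 0.336 in limma, and -0.51 without CD1), with another probe of the gene in the opposite direction. Fli1, Sox17, Gata2 and Lyl1 were never well above background.

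In the Notch and BMP9/ALK1 pathway, which sets artery identity and sprouting, 6 of 10 tested genes had a higher and 4 a lower mean in WD. The median was 0.21, and it was -0.04 with arrays scaled on their median, against -0.24 over all genes. Acvrl1 encodes ALK1, the receptor that endoglin assists, and was at 0.42, -0.68, 0.71, 0.48 and 0.51 in WD1 to WD5, against -0.80, 0.03, -0.26, -0.37 and -0.35 in CD1 to CD5. WD2 lay among the CD tumours and the other 4 WD tumours above them all. The difference was 0.64 ± 0.26 (SE, limma adjusted p 0.277), beside -0.23 for Eng on the same arrays. Smad6, an inhibitor in the same pathway, differed by -0.77 (limma adjusted p 0.320), with WD3 far below the other WD tumours on a probe not well above background there, and by -0.43 without WD3. Dll1 differed by -0.92 and Notch4 by 0.30, which ran from 0.05 to 0.71 as single tumours were left out.

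Of 7 tested genes of vessel tone, 1 had a higher and 6 a lower mean in WD, with a median of -0.29. With no filter on dim probes the list grew to 12 genes and its median was 0.09, beside 0.34 over all genes in that fit. Ednra, the endothelin receptor of vascular muscle, was at 1.51 ± 0.14 in WD tumours and 1.79 ± 0.23 in CD tumours (SD, n = 5 each, limma adjusted p 0.391). Esm1, a gene of sprouting tip cells, differed by -0.44 and the connexin gene Gja5 by 0.47, which was 0.09 without WD1. Of the adhesion genes by which inflamed endothelium holds leukocytes, 1 had a higher and 2 a lower mean among 3 tested, and Sele, Selp and Madcam1 were never well above background.

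Pericytes and muscle cells wrap vessels, and a basement membrane lies beneath the endothelium. Of 10 tested pericyte and vascular muscle genes 7 had a higher and 3 a lower mean in WD, with a median of 0.23 that was -0.03 with arrays scaled on their median (-0.24 over all genes). Des differed by 0.68 (limma adjusted p 0.261), Pdgfrb, the pericyte receptor for PDGF-B, by 0.54, and Rgs5, a pericyte marker, by 0.11 (-0.14 without WD4). Myh11 differed by -1.52 with an SE of 1.08 and Cnn1 by -1.05 with an SE of 0.60. Which cells of the tumours gave the signal of these muscle genes was not tested. Among 7 basement membrane genes 5 were higher and 2 lower (median 0.14, and -0.11 with arrays scaled on their median, against -0.24 over all genes). Sparcl1 was 0.87 ± 0.33 higher in WD (SE, limma adjusted p 0.257) and Lamc1 differed by -0.60 ± 0.22 (SE, limma adjusted p 0.254), with another Lamc1 probe in the opposite direction.

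**Figure D5:**
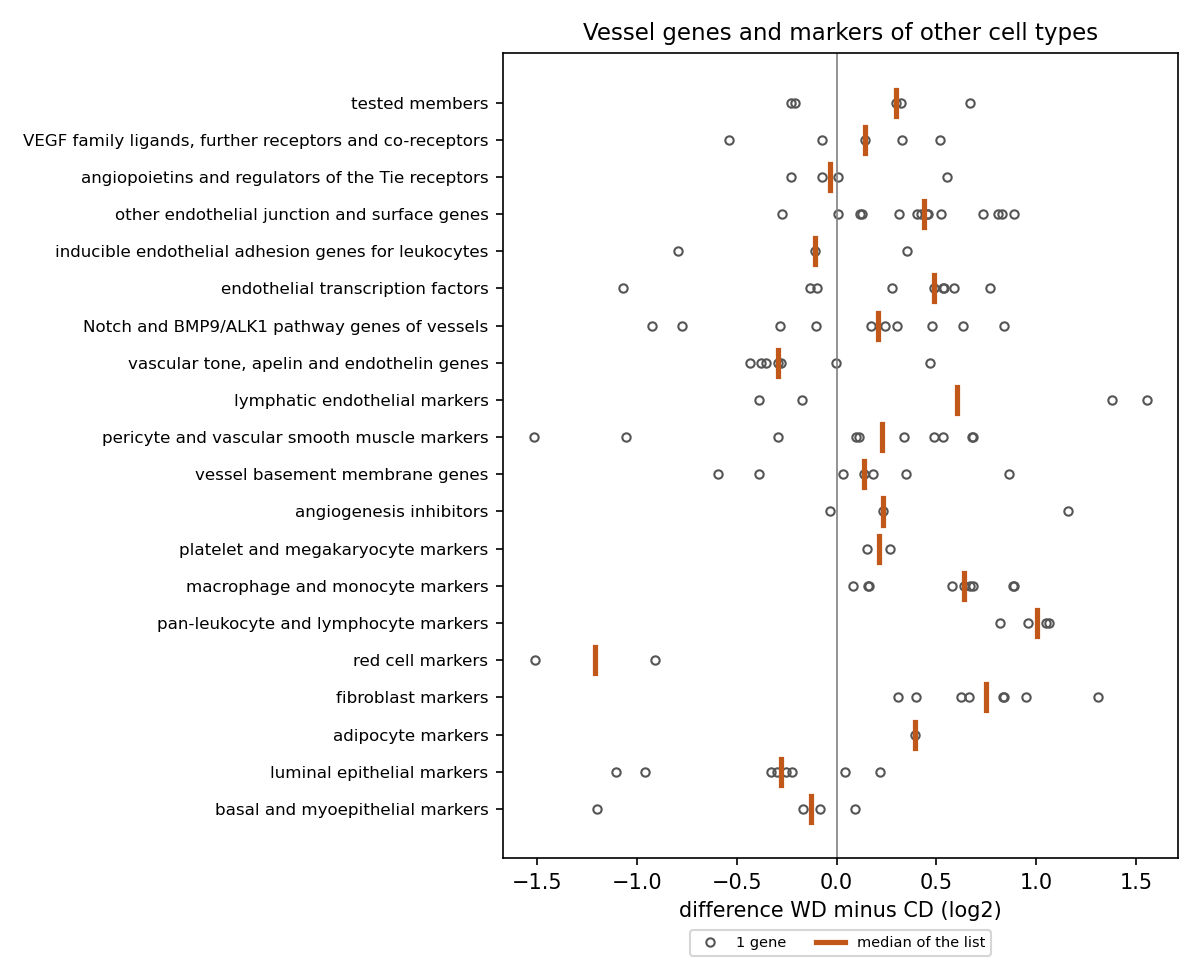
Difference between the group means (WD minus CD, log2, horizontal) for the tested genes of each list, 1 circle per gene, with the list median as a vertical bar. The 5 tested members have a median of 0.30, the other junction and surface genes one of 0.44, lymphocyte markers one of 1.01 and luminal epithelial markers one of -0.28.

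Markers of other cell types also differed in mean on the same arrays, none past the adjusted threshold. All 9 tested macrophage markers had a higher mean in WD (median 0.64), as did 4 of 4 leukocyte and lymphocyte markers (median 1.01, all 4 at an unadjusted limma p under 0.05, against 7.8% of all tested genes) and 8 of 8 fibroblast markers (median 0.75), while 6 of 8 luminal epithelial markers had a lower one (median -0.28). The summed level of the lymphocyte list, in multiples of the 75th percentile of the array, ranged from 10.04 to 31.4 in WD tumours and from 6.89 to 12.7 in CD tumours. That of the macrophage list ranged from 48.6 to 196 in WD tumours and from 62.5 to 105 in CD tumours. That of the fibroblast list ranged from 70.7 to 248 in WD tumours and from 57.4 to 161 in CD tumours, and that of the luminal list from 462 to 711 in WD tumours and from 505 to 657 in CD tumours. Each sum leans on the brightest probes of its list, such as that of Krt18 (difference 0.04) in the luminal list. The sums compare tumours within a list and do not stand for all its genes. Cd4, a T helper cell marker, was never well above background. The 4 tested leukocyte and lymphocyte markers were Ptprc, Cd3d, Cd3e and Cd3g. With brightness as a covariate their median was 0.64, and 0 of 4 had an unadjusted limma p under 0.05 (964 of all 16779 genes). With normexp it was 0.56, and 1 of 4 had such a p (499 of all genes). Within slides 1, 2 and 3 the macrophage median was -0.37, 0.94 and 1.14 and the fibroblast median -0.67, 0.43 and 1.86. The part of these cells in the differences of the vessel genes was not tested. Over all 114 genes of the companion lists, 75 had a higher and 39 a lower mean in WD, 18 had an unadjusted p under 0.05 (15.8%, beside 15.5% of all tested genes), and none passed the adjusted threshold (lowest adjusted p 0.181 in limma).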

How the data were processed

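RNA of 10 mammary tumours was hybridised to Agilent whole rat genome arrays, 1 array per tumour, from 200 ng of total RNA. Per the file headers the authors read the scans with Agilent Feature Extraction 11.5.1.1, while version 15.5 stands in the submitters' processing notes. In the deposited files the intensity values are processed signals, background-subtracted and not scaled between arrays per the file headers, with median spot and background signals. The deposited files also hold marks of 0 or 1 (other) for spots well above background, outlier spots and saturated spots, of which 0 were saturated. The authors' deposited series matrix holds log2 values, whose rank order in each column is that of its array's median signals and whose column medians lie at 6.97 to 6.98. From these values the matrix appears to be quantile-normalised, and no source used here names the tool that made it.

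The number of arrays limits the precision. Of 45018 spots, 1639 were controls, and the 43379 measuring spots belong to 41012 probes. Each processed signal was taken to log2, the 75th percentile of the array was subtracted, outlier spots were dropped and replicate spots averaged. Probes were kept when well above background on at least 5 of 10 arrays, and the brightest kept probe stood for its gene. Symbols came from transcript identifiers through RefSeq on GRCr8, which matched 17502 probes (42.7%) to 13832 symbols. The array annotation is on an older build, so its positions are not given.

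The comparison of WD with CD used limma 3.58.1 under R 4.3.3 (group as the only term, Benjamini-Hochberg over all tested genes, threshold 0.05), and the data.table package (1.17.8) read the files. The test was run on simulated data with independent genes and no effect of brightness or slide. That check therefore does not cover these effects in the real arrays. Correlations used 100000 permutations (scipy 1.17.1), and matplotlib 3.10.9 under Python 3.11.15 drew the plots. Alternatives were normexp background correction (offset 50, on median spot signals, since the files used here have no mean-signal column), quantile normalisation, array median scaling, the matrix values, no or a stricter filter on dim probes, the mean of kept probes, outlier spots kept, slide or replicate number as a block, array brightness as a covariate, values within each slide, and each tumour left out. A slide was scanned as a whole, so its effect and that of the scan cannot be told apart. Same-numbered tumours deviated from their group means with correlations of -0.02 to 0.16, and the main fit did not pair them. These correlations cannot decide whether same-numbered tumours share a litter or a batch.

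The members and lists were chosen with earlier results of these data known. Named genes are the members, 27 companion genes fixed by name where tested, in each companion list the 2 of smallest p and the 1 of largest difference, and the 8 genes most like the mean of the members. Some others, such as Pdpn and Reln, are named to complete or describe a list. Protein sequences were not used here.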

Additional observations from a re-analysis of the deposited data

Results flagged for a closer look

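In 8 of 130 groups of 5 tumours, 1 tumour stood apart from the other 4 by a Dixon test at its 95% level, and chance alone gives about 1 in 20. None of these groups belonged to a tested member. In WD2, Acvrl1 was at -0.68 with the other WD tumours at 0.42 to 0.71. The same tumour stood low in the macrophage gene Mrc1 (-0.24, others 1.38 to 1.90) and in the matrix genes Fn1 (2.34, others 4.22 to 4.64) and Dcn (1.09, others 3.49 to 4.37). In WD3, Smad6 was at -4.14, with the others at -2.57 to -2.31, but the probe was not well above background there or in WD2 and WD4. In WD1, Gja5 was at 1.49, with the others at -0.72 to -0.26. In CD3, Angptl4 was at -3.13 (others -1.22 to -0.60), where its probe was not well above background, and the luminal keratin gene Krt8 at 3.36 (others 4.43 to 4.82).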

How the results depend on the processing

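No member and no other gene passed the adjusted threshold in limma under any setting run. Unadjusted p fell under 0.05 for 2603 genes, against 499 with normexp, 964 with brightness as a covariate and 7055 with no filter on dim probes, and for 1 member in each of 3 settings (Kdr with the slide block, Cdh5 without WD5 or CD3). With the replicate block 0 genes passed and 2676 had an unadjusted p under 0.05. Scaling on the array median moved the median of all genes to -0.24 and that of the members to 0.047.

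Signs reversed for Flt1 within slide 1 (0.47) and without WD3 (leave-one-out range -0.38 to 0.058), for Eng with brightness as a covariate (0.24) and within slides 2 (0.034) and 3 (0.086), and for the Kdr and Esam correlation with normexp (-0.13). That correlation missed the adjusted threshold with the replicate block (0.70), the brightness covariate (0.73), group means removed (0.81, chosen after seeing the data) and without WD3, WD5, CD2, CD3 or CD4 (range 0.74 to 0.92). Kdr and Esam alone passed the filter for all 10 arrays, so the median pairwise r there was 0.84. The causes were not tested.

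With the brightness covariate the members' median was 0.038, and list medians were -0.21 (VEGF ligands), 0.35 (angiopoietins), 0.22 (transcription factors), 0.37 (basement membrane) and 1.03 (inhibitors). Array median scaling gave -0.28 (angiopoietins), 0.24 (transcription factors), -0.54 (vessel tone) and -0.11 (basement membrane). Normexp gave 0.12 for transcription factors, the matrix 0.13 for them and 0.14 for junction genes, no filter 0.093 for vessel tone and the strict filter -0.17 for lymphatic genes. Leaving out single tumours took 4 list medians through 0: angiopoietins (-0.14 to 0.16), VEGF ligands (-0.12 to 0.36), leukocyte adhesion (-0.20 to 0.17) and inhibitors (-0.029 to 0.49). It moved the members' median between 0.17 and 0.39.

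Slides hold 3 or 4 arrays. Within slide 1 the medians were 0.51 (VEGF ligands), -0.0017 (junction), -0.18 (transcription factors), -0.059 (vessel tone), -0.81 (lymphatic), -0.28 (platelet), -0.37 (macrophage), 0.34 (lymphocyte), -2.54 (red cell), -0.67 (fibroblast), -0.32 (adipocyte) and -0.46 (basal). Within slide 2 they were 0.16 (angiopoietins), 1.22 (leukocyte adhesion), 0.26 (transcription factors), 0.76 (pericyte), 0.31 (basement membrane), 0.75 (inhibitors) and 1.65 (lymphocyte). Within slide 3 they were -0.40 (VEGF ligands), -0.92 (vessel tone), 1.33 (lymphatic), 0.85 (inhibitors), 0.89 (platelet), 1.44 (red cell), 1.86 (fibroblast) and 0.99 (adipocyte). Of 52 named companion genes, 11 changed sign under at least 1 setting, 5 of them with the brightness covariate.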

Other observations

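Of 4 tested markers of lymphatic endothelium, 2 had a higher and 2 a lower mean in WD, with a median difference of 0.60. The lower ones, Pdpn and Reln, differed by -0.17 and -0.39, on probes well above background on all 10 arrays. The median falls between the higher and the lower genes and describes none of them. The higher ones, Lyve1 and Ccl21, spread widely between tumours. Lyve1, the hyaluronan receptor of lymphatic vessels that some macrophages carry too, was at -0.61, -3.76, -1.99, -1.06 and -0.05 in WD1 to WD5, against -3.78, -0.88, -4.58, -4.11 and -1.90 in CD1 to CD5. WD2 lay among the low CD tumours and CD2 among the high WD tumours. The Lyve1 difference was 1.56 ± 0.82 (SE, limma adjusted p 0.381), and 3.05 with brightness as a covariate. The probe was well above background on 3 of 5 WD arrays and 2 of 5 CD arrays. Ccl21, the lymphatic and lymph node chemokine, was at 3.80, -0.99, 1.20, 2.30 and 2.49 in WD1 to WD5, against 0.26, 3.46, 0.38, -0.98 and -1.23 in CD1 to CD5 (1.38 ± 0.98, SE, limma adjusted p 0.511). WD2 was again low and CD2 again high. Prox1, the master gene of lymphatic endothelium, was never well above background.

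Blood cell markers were read as well. Both tested platelet genes had a higher mean in WD (median 0.21, and -0.04 with arrays scaled on their median, against -0.24 over all genes), and both tested red cell genes a lower one (median -1.21). Pf4, a platelet chemokine, averaged 1.396 ± 0.85 in WD tumours and 1.13 ± 0.53 in CD tumours (SD, n = 5 each, limma adjusted p 0.763). The red cell genes Alas2 and Hbb differed by -1.51 and -0.91 (limma adjusted p 0.334 and 0.557), and Alas2 was well above background on 1 of 5 WD arrays and 5 of 5 CD arrays. Of 3 tested angiogenesis inhibitors, 2 had a higher and 1 a lower mean in WD (median 0.23, and -0.02 with arrays scaled on their median, against -0.24 over all genes). Thbs2, an inhibitor of angiogenesis made by stromal cells, differed by 1.16 ± 0.62 (SE, limma adjusted p 0.386). Lpl was the 1 adipocyte marker bright enough to be tested (difference 0.40), and of 4 basal epithelial markers 1 had a higher and 3 a lower mean in WD (median -0.13).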
